A study of Sus scrofa with 12 samples.

Results

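The genes described here build, coat and empty lipid droplets. They are 10 of the 29884 genes in the deposited expression table, taken by their exact symbols, and all 10 were found: the perilipins PLIN1, PLIN2, PLIN3, PLIN4 and PLIN5, the esterifying enzyme SOAT1, and the ester hydrolases LIPE, NCEH1, LIPA and PNPLA2. Their levels were measured in whole left ovaries of sows of the small litter size (SLS) group, ZD2, ZD3 and ZD12, and of the large litter size (LLS) group, ZD5, ZD7 and ZD8. Per the labels, the groups had 8.48 ± 0.53 and 16.19 ± 0.43 piglets per litter. The labels do not name this error, and the methods of the study give results in general as mean ± SEM. All sows came from 1 commercial piggery and were slaughtered 4 days after delivery number 4, and no treatment, breed or age in years is given in the sources used here. Each ovary gave 1 library from RNA depleted of ribosomal RNA, and levels are in FPKM, reads scaled to transcript length and library size, so that genes of different length can be set side by side.

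A lipid droplet is a core of triglyceride and cholesteryl ester under a single layer of phospholipid, and perilipins are the proteins that bind this surface and control the access of lipases to the core. Steroid-producing cells of the ovary store cholesterol as cholesteryl ester. SOAT1 joins cholesterol to a fatty acid in the endoplasmic reticulum, while LIPE (hormone-sensitive lipase) and NCEH1 release cholesterol at neutral pH and LIPA releases it in the lysosome from lipoproteins and engulfed droplets. PNPLA2 (adipose triglyceride lipase) cuts the first fatty acid from triglyceride.

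Promoter sequences were read from Sscrofa11.1, the build to which the authors mapped the reads, from 250 bases before to 30 bases after the 5′ end of the longest annotated RefSeq transcript, 5′ to 3′ on the strand of the gene. The perilipin promoters that share a motif are shown first, because the abundant PLIN2 and the weak neighbours PLIN5 and PLIN4 have it in common. Capitals mark TATAA and the E-box CACGTG, and counting runs from 1 at the first transcribed base, with the base before it at -1. They lie at chr1:203683756-203684035 (PLIN2), chr2:74304390-74304669 (PLIN5) and chr2:74318394-74318673 (PLIN4), all on the plus strand.
PLIN2: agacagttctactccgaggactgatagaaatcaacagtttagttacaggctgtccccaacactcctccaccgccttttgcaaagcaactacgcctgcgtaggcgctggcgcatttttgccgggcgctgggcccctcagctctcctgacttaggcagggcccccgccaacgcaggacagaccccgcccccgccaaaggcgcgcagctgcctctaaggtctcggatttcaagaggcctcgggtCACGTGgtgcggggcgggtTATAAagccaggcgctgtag
PLIN5: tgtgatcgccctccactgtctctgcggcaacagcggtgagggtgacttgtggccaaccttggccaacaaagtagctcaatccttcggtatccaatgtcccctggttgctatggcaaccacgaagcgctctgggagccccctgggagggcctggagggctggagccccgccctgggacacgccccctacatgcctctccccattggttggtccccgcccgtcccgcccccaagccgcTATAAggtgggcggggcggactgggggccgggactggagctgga
PLIN4: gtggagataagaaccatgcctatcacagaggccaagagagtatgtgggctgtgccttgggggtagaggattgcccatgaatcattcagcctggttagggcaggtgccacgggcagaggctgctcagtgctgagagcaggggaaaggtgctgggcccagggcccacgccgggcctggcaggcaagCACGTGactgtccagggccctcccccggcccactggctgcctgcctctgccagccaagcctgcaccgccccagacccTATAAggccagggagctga

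TATAA, searched on the strand of the gene from 50 bases before the start to the end of the window and chosen after the sequences were seen, was present in these 3 of the 10 promoters, at 11 in PLIN2, -14 in PLIN5 and 12 in PLIN4. It was present in 4.62% of the 19497 promoters of protein-coding genes read in this way. CACGTG, searched on both strands, was present in PLIN2 at -9 and in PLIN4 at -66, so 2 of 10, and in 7.14% of all promoters. CAAGGTCA, the letters of a steroidogenic factor 1 site, and TGACGTCA, those of a cAMP response element, were found in 0 of 10 on either strand, against 1.24% and 2.03% of all promoters. A direct repeat of AGGTCA with 1 base between the copies was also found in 0 of 10, against 0.0256%.

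LIPA and NCEH1, the enzymes on which the comparisons below turn most, had promoters of unlike composition. The LIPA window, at chr14:101254710-101254989 on the minus strand, held 31 CpG sites and 66.4% G and C. The NCEH1 window, at chr13:111207256-111207535 on the minus strand, held 10 CpG sites and 52.1% G and C. The medians over all promoters were 14 CpG sites and 58.2%. Neither sequence has capitals because it held none of the letters searched.
LIPA: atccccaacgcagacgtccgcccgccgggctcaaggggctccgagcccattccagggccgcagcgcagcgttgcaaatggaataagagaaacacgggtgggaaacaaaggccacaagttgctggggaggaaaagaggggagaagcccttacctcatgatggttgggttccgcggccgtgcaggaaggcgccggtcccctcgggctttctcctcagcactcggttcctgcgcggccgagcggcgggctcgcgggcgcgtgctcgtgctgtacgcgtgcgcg
NCEH1: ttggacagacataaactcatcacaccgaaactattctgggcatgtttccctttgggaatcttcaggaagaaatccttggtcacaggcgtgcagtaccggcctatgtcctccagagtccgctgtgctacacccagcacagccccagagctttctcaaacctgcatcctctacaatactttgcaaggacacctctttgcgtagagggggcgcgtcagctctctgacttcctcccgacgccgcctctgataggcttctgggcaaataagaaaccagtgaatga

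The gene libraries held 32272803 to 60903268 reads, and the LLS ovary ZD8 had the fewest. ZD8 stands apart from the other 5 ovaries, so results are given with and without it. The summed level of 6 luteal marker genes (STAR, CYP11A1, HSD3B1, SCARB1, LHCGR, PTGFR) was 123 FPKM in ZD8 and 9167 to 12191 FPKM in the others, with each of the 6 genes lowest in ZD8. The sum of the theca markers CYP17A1 and INSL3 was 415 against 9.31 to 74.4 FPKM, and that of 5 oocyte markers (ZP2, ZP3, GDF9, BMP15, DDX4) was 101 against 6.39 to 20.0 FPKM. Among the ovarian markers, CYP19A1 was at 0 in all ovaries except ZD5 (0.0137 FPKM) and ZP2 was at 0 in ZD3 and ZD7. Of 10 adipocyte markers, summing to 16.5 to 31.1 FPKM and to 42.6 FPKM in ZD8, 2 passed the filter on low values (LPL and CFD), and ADIPOQ was at 0 in all ovaries except ZD8 (0.0315 FPKM). The 3 endothelial markers were also all lowest in ZD8 (sum 84.9 against 180 to 269 FPKM). The sum of 5 granulosa markers was lowest in ZD8 (127 against 172 to 768 FPKM) through INHA (66.4 against 162 to 726 FPKM), while FSHR, AMH and FOXL2 were highest there. The macrophage (52.2 FPKM), muscle (668 FPKM), stroma (2456 FPKM) and surface epithelium (17.5 FPKM) sums in ZD8 lay within the ranges of the other ovaries, but single markers did not. MYH11 (190 against at most 47.1 FPKM), DCN (1854 against at most 859 FPKM), PDGFRA (220 against at most 123 FPKM) and 4 of 6 macrophage markers were highest in ZD8, and CD14 (4.34 against 12.4 FPKM or more), CKM and COL1A1 were lowest. The part of these markers in the results below was not tested, and in whole tissue fewer cells of a type and less RNA per cell cannot be told apart.

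The levels spanned more than 3 orders of magnitude on the plot of all members by ovary. LIPA was the highest at a mean of 164 FPKM over the 6 ovaries (SD 69.4), above 90.0% to 98.9% of the genes detected in each library. PLIN2 (31.1, SD 8.35), NCEH1 (29.8, SD 13.8), PNPLA2 (24.0, SD 6.52), SOAT1 (18.6, SD 7.15) and PLIN3 (14.8, SD 3.34) followed, and their order was not kept from ovary to ovary. PLIN2 exceeded NCEH1 in 4 of 6 ovaries, NCEH1 exceeded PNPLA2 in 3, PNPLA2 exceeded SOAT1 in 4 and SOAT1 exceeded PLIN3 in 4. LIPE (7.21, SD 3.16) was below PLIN3 in 6 of 6 ovaries. PLIN5 (0.513, SD 0.216), PLIN4 (0.123, SD 0.125) and PLIN1 (0.0550, SD 0.0681) did not reach 1 FPKM in any ovary. The filter of at least 1 FPKM in at least 3 libraries was therefore passed by 7 of the 10 members, and PLIN1, PLIN4 and PLIN5 do not enter the test across genes. In the limma fit without a filter, the differences in log2(FPKM + 1) of PLIN1, PLIN4 and PLIN5 were 0.000288, 0.14 and 0.13. The adjusted p values by limma were 0.999, 0.993 and 0.993. Below 1 FPKM the added 1 shrinks such differences. The SLS and LLS means were 0.0560 and 0.0540 FPKM for PLIN1 and 0.443 and 0.584 FPKM for PLIN5. For PLIN4 they were 0.0671 and 0.179 FPKM, with an LLS mean of 0.0881 FPKM without ZD8.

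**Figure D1:**
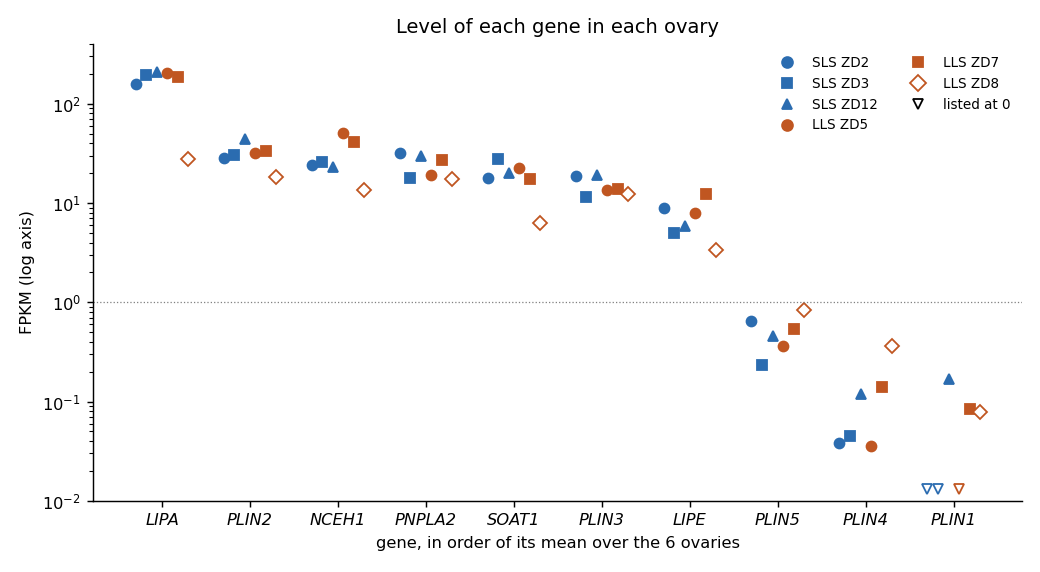
Each point is the FPKM (log axis) of a gene in 1 ovary, blue for SLS and orange for LLS, with ZD8 as an open diamond; open triangles mark genes listed at 0 and the dotted line is at 1 FPKM. LIPA lies highest at 159 to 210 FPKM in the 5 ovaries other than ZD8 and at 27.5 FPKM in ZD8, while PLIN5, PLIN4 and PLIN1 lie below 1 FPKM in every ovary.

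PLIN2, the perilipin found on droplets of most cells that store lipid, was the main coat gene in these ovaries. It had 28.5, 30.3 and 43.9 FPKM in ZD2, ZD3 and ZD12 (SLS) and 32.2, 33.8 and 18.1 FPKM in ZD5, ZD7 and ZD8 (LLS). ZD5 and ZD7 lay inside the range of the SLS ovaries and ZD8 was the lowest of all. PLIN3, which moves from the cytosol to forming droplets, had 18.9, 11.4 and 19.0 FPKM in SLS and 13.4, 13.8 and 12.3 FPKM in LLS. The LLS values of PLIN3 lay close together and within the SLS range, ZD8 included.

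PLIN5, known from tissues that burn fatty acids, had 0.644, 0.231 and 0.452 FPKM in ZD2, ZD3 and ZD12 and 0.366, 0.542 and 0.845 FPKM in ZD5, ZD7 and ZD8, from 25 to 82 reads. PLIN4, a long perilipin made of repeats and best known from fat and muscle, had 0.0382, 0.0450 and 0.118 FPKM in SLS and 0.0353, 0.141 and 0.360 FPKM in LLS, from 14 to 80 reads. ZD8 was highest for both, with a 95% Poisson interval of 0.286 to 0.448 FPKM for PLIN4 that lay above that of the next ovary, ZD7 (0.107 to 0.182 FPKM). For PLIN5 the interval of ZD8 (0.640 to 1.09 FPKM) overlapped that of ZD2 (0.512 to 0.800 FPKM). These intervals cover counting error only. Among genes with few reads, the share with an even number was 55.9% in ZD8, 57.8% in ZD7 and 60.8% in ZD2. It was 46.7% to 47.3% in the other ovaries. Where reads were counted in pairs the intervals would be too narrow, which was not tested. PLIN1, the coat of fat cell droplets, was at 0 reads in ZD2, ZD3 and ZD5, where 3 reads would be 0.0313 to 0.0368 FPKM. It had 14, 8 and 4 reads in ZD12, ZD7 and ZD8, or 0.168, 0.0834 and 0.0787 FPKM.

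The 3 genes PLIN3, PLIN5 and PLIN4 lie in this order on the plus strand of chromosome 2, from chr2:73970149-73995314 through chr2:74304613-74314314 to chr2:74318624-74331920. PLIN5 and PLIN4 are 4309 bases apart, and both are weak. PLIN3 ends 309298 bases before PLIN5 and was at 11.4 FPKM or more in every ovary. PLIN4 shares 30 exon bases with HDGFL2 on the opposite strand (7.49 to 18.5 FPKM), and the sources used here do not say whether the counting used the strand. PLIN2 shares 7 exon bases with a transcribed pseudogene on its own strand, LOC100737553 (2.33 to 7.39 FPKM). PLIN1 lies at chr7:55237517-55250797 on the minus strand and PLIN2 at chr1:203683867-203709277 on the plus strand.

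As shares of the summed perilipin FPKM, PLIN2 took 57.1% to 72.2% and PLIN3 27.1% to 39.3%. PLIN2 was at 59.3%, 72.2% and 68.9% in SLS and at 70.0%, 69.8% and 57.1% in LLS, with no separation of the groups (difference of LLS from SLS -1.17 percentage points, exact two-sided permutation test, p = 0.7). Without ZD8 the difference was 3.12 percentage points (p = 0.8, exact permutation test). PLIN5 and PLIN4 together took their largest shares in ZD8, at 2.67% and 1.14%, against at most 1.34% and 0.291% in the other ovaries. The summed perilipin level was also lowest in ZD8, at 31.7 FPKM against 42.0 to 63.7 FPKM.

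SOAT1 (chr9:121045211-121112393, plus strand) had 18.0, 27.8 and 20.3 FPKM in ZD2, ZD3 and ZD12 and 22.3, 17.3 and 6.22 FPKM in ZD5, ZD7 and ZD8. ZD8 was 2.78-fold below the lowest of the other ovaries, which otherwise lay within 1.60-fold of each other. Its paralog SOAT2, the form of intestine and liver, was at 0.00887 to 0.185 FPKM, far below SOAT1 in every ovary.

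LIPA was the least variable member outside ZD8. It had 159, 195 and 210 FPKM in ZD2, ZD3 and ZD12 (SLS) and 206 and 187 FPKM in ZD5 and ZD7 (LLS), a spread of 1.32-fold. ZD8 had 27.5 FPKM, 5.79-fold below the lowest of the others, from 2358 reads. On the scale of log2(FPKM + 1), ZD8 was 2.78 below the median of the other ovaries for LIPA, and 1.28% of the 12260 tested genes lay lower on this measure. LIPA spans 123368 bases at chr14:101131372-101254739, with IFIT1, IFIT2 and IFIT3 (at most 6.31 FPKM) on the opposite strand inside it and sharing 0 exon bases. A long noncoding RNA on the opposite strand, LOC102164066, shares 303 exon bases and was at 0.0133 FPKM or less.

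NCEH1 (chr13:111148677-111207285, minus strand, 5 exons and 1 annotated transcript) had 24.4, 25.6 and 22.8 FPKM in ZD2, ZD3 and ZD12. The LLS ovaries ZD5 and ZD7 were higher, at 51.1 and 41.6 FPKM, and the third, ZD8, was lower than all SLS ovaries at 13.6 FPKM. NCEH1 had the smallest spread of the 7 tested members between the SLS ovaries, with an SD of 0.08 on the log2(FPKM + 1) scale, and an SD of 0.98 between the LLS ovaries. LIPE (chr6:49543671-49560126, plus strand) had 8.88, 5.01 and 5.87 FPKM in SLS and 7.89, 12.2 and 3.35 FPKM in LLS, so that its highest and its lowest value were both in LLS. PNPLA2 (chr2:513065-517962, plus strand) had 32.0, 17.8 and 29.9 FPKM in SLS and 19.2, 27.3 and 17.6 FPKM in LLS. ZD8 was the lowest for PNPLA2 too, but by 1.01-fold from ZD3.

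In ZD8, 6 of the 7 tested members were below all other ovaries (PLIN2, SOAT1, LIPE, NCEH1, LIPA, PNPLA2), where 26.3% of the 12260 tested genes were. None of the 7 was above all others in ZD8 (0 of 7), where 44.6% of the tested genes were, while PLIN4 and PLIN5, which lie below the filter, were. The median tested gene was 0.23 higher in ZD8 than the median of the other ovaries on the log2 scale, and the members ranged from 2.78 lower for LIPA and 1.56 lower for SOAT1 to 0.15 lower for PLIN3. These are descriptions of 1 ovary that was set apart by its values, with no test. STAR, which brings cholesterol into mitochondria for steroid synthesis, was further down in ZD8 than any member, at 26.4 FPKM against 2542 FPKM or more in the other ovaries, and 6 of 6 luteal markers were lowest there.

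The comparison of LLS with SLS asks whether these genes differ with litter size. No member passed the test with all 6 ovaries. Of the 12260 genes tested by limma, 0 were called (0%) (log2 fold change beyond 1 in either direction and adjusted p under 0.05), and 216 had an unadjusted p under 0.05, none of them a member. Each of the 7 tested members had overlapping groups (0 of 7 separated), against 5.12% of the tested genes whose groups did not overlap.

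LIPA had 188 ± 26.0 FPKM in SLS and 140 ± 98.3 FPKM in LLS (SD, n = 3 ovaries each), a log2 difference of LLS from SLS of -0.86 (standard error 0.72, adjusted p = 0.999 by limma). Without ZD8 the LLS mean was 197 ± 13.4 FPKM (SD, n = 2) and the difference 0.07 (standard error 0.26). SOAT1 had 22.0 ± 5.11 and 15.3 ± 8.24 FPKM, a log2 difference of -0.64 (standard error 0.44), which was -0.13 (standard error 0.27) without ZD8. PLIN2 differed by -0.31 (standard error 0.33) and, without ZD8, by -0.03 (standard error 0.26). Without ZD8, the differences of LIPA, SOAT1 and PLIN2 were thus smaller than their standard errors, as that of PLIN2 was with all ovaries too. For PLIN3 and PNPLA2 the differences were -0.27 and -0.29 with all ovaries and -0.22 and -0.16 without ZD8. All 7 adjusted p values by limma were 0.999 with all ovaries, and the exact two-sided permutation p ran from 0.3 for PNPLA2 to 1 for LIPE, in a design that cannot go below 0.1.

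NCEH1 was the member that differed most between the groups once ZD8 was left out. With all ovaries it had 24.3 ± 1.38 FPKM in SLS and 35.4 ± 19.5 FPKM in LLS (SD, n = 3 each), a log2 difference of 0.34 (standard error 0.46, adjusted p = 0.999 by limma). Without ZD8 the LLS mean was 46.3 ± 6.72 FPKM (SD, n = 2) and the difference 0.90 (standard error 0.23), with an unadjusted p of 0.0032 and an adjusted p of 0.263 by limma. Both remaining LLS ovaries were above all 3 SLS ovaries, which is the smallest exact permutation p that 3 against 2 allow (p = 0.1, two-sided). This held for 1 of the 7 tested members, against 7.53% of the 11985 genes tested without ZD8, and the reverse, both LLS ovaries below all SLS ovaries, for 0 of 7, against 11.5%. Without ZD8 limma called 0 of 7 members and 0.117% of all genes higher in LLS. With all 6 ovaries and limma's array weights, which give less weight to libraries that vary more, the difference of NCEH1 was 0.88 (adjusted p = 0.190 by limma). Count tests on reads rebuilt from FPKM (DESeq2 and edgeR) were run and then left out, because the deposited values are not counts. They differed on whether NCEH1 was called without ZD8, and no result here rests on them. LIPE moved to 0.55 (standard error 0.31, adjusted p = 0.9996 by limma) without ZD8, with ZD5 still below the SLS ovary ZD2.

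**Figure D2:**
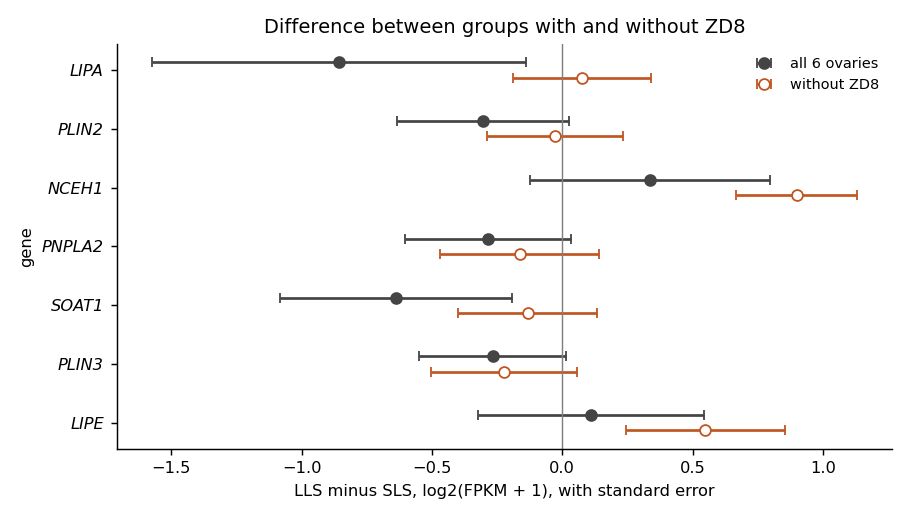
Points give the difference of LLS from SLS in log2(FPKM + 1) for the 7 tested genes and bars the standard error of the limma fit, filled for all 6 ovaries and open without ZD8. LIPA moves from -0.86 to 0.07 and NCEH1 from 0.34 to 0.90 when ZD8 is left out.

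Among the ester hydrolases, the share of NCEH1 did not overlap between the groups, while the shares of LIPA, LIPE and PNPLA2 did. LIPA took 70.9%, 80.1% and 78.2% of the summed FPKM of LIPA, NCEH1, LIPE and PNPLA2 in ZD2, ZD3 and ZD12, and 72.5%, 69.8% and 44.3% in ZD5, ZD7 and ZD8. The share of NCEH1 was 10.9%, 10.5% and 8.51% in SLS and 18.0%, 15.5% and 22.0% in LLS. Every LLS ovary was above every SLS ovary, ZD8 included, with 9.96% ± 1.27 in SLS and 18.5% ± 3.28 in LLS (SD, n = 3 each). The difference was 8.50 percentage points (exact permutation test, two-sided, p = 0.1, the smallest p of this design), and it lay between 6.75 and 9.998 percentage points with each ovary left out. The LLS ovaries reached it from different levels, with NCEH1 itself at 51.1 and 41.6 FPKM in ZD5 and ZD7 and LIPA at 27.5 FPKM in ZD8. Of the 16 sums, shares and ratios of members compared in this way, the NCEH1 share was the only one to separate the groups with all ovaries, and its p adjusted over the 16 was 1.

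**Figure D3:**
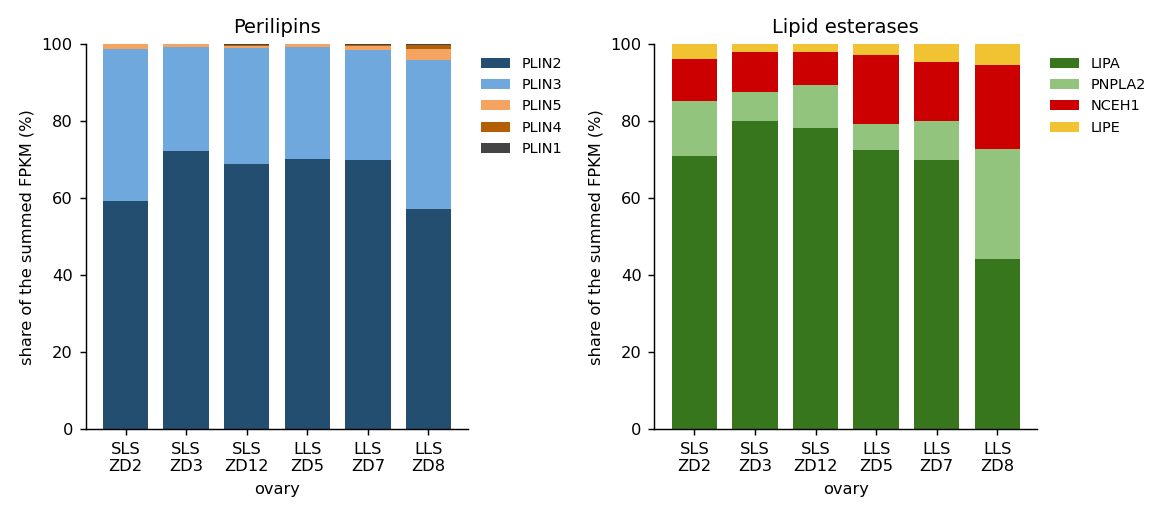
Stacked bars give the share (%) of each gene in the summed FPKM of the 5 perilipins (left) and of the 4 lipid esterases (right) in each ovary. The NCEH1 share is 8.51% to 10.9% in SLS and 15.5% to 22.0% in LLS, and ZD8 has the lowest LIPA share at 44.3%.

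PNPLA2 took 28.3% of the esterase sum in ZD8 and 6.75% to 14.3% in the other ovaries, so that LIPA exceeded PNPLA2 by 1.56-fold in ZD8 and by 4.97-fold to 10.9-fold elsewhere. The level of SOAT1 relative to the summed cholesteryl ester hydrolases LIPE, NCEH1 and LIPA was 9.36%, 12.3% and 8.49% in SLS and 8.41%, 7.17% and 14.0% in LLS. ZD8 was the highest here, as LIPA was lower there by a larger factor than SOAT1. The difference of LLS from SLS was -0.197 percentage points (exact permutation test, p = 0.9) and -2.26 without ZD8 (p = 0.2, exact permutation test).

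Other genes of lipid storage were taken from 6 lists, of 109 symbols of which 105 were in the table and 89 passed the filter. None was called by limma in either direction, with all ovaries or without ZD8, beside 0 of 12260 and 20 of 11985 genes overall. The median log2 difference was -0.03 for 15 droplet proteins, -0.13 for 16 enzymes of triglyceride and sterol ester synthesis, 0.17 for 8 further ester hydrolases, -0.11 for 22 genes of cholesterol uptake and transfer, -0.04 for 15 transcription factors and -0.07 for 13 genes that signal to the lipases, against 0.02 for all tested genes. Without ZD8 the same medians were, in this order, -0.21, 0.05, 0.31, -0.000438, -0.10 and -0.02, against -0.10 for all genes, so that the sign turned for the synthesis enzymes and for all genes. LIPG, the endothelial lipase, had the largest difference without ZD8 among the hydrolases. It had 63.1, 70.0 and 37.3 FPKM in SLS and 284, 122 and 7.11 FPKM in LLS (log2 difference 1.74 without ZD8, adjusted p = 0.167 by limma), so it was high in ZD5 and ZD7 and lowest in ZD8, as NCEH1 was.

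The genes of each list that varied most over the ovaries were mostly set by ZD8. Among the droplet proteins, G0S2, an inhibitor of PNPLA2, reached 35.4 FPKM in ZD8 and at most 13.7 FPKM in the others. FITM2, which acts in the budding of droplets, was at 10.5 FPKM against 35.9 to 66.3 FPKM, and TMEM159 at 13.1 against 1.84 to 5.50 FPKM. In the synthesis list, ACSL4, which activates long polyunsaturated fatty acids, was at 10.6 FPKM in ZD8 and 144 to 509 FPKM elsewhere. AGPAT2 was at 13.4 against 49.9 to 92.4 FPKM, and ACSL6 went the other way, at 13.5 against 2.99 to 6.60 FPKM. Among the hydrolases, ABHD6 was at 4.07 against 14.7 to 48.8 FPKM, while LPL, at 3.45 to 24.9 FPKM, was highest in ZD5. For uptake and transfer, SCARB1, the receptor for cholesteryl ester of high-density lipoprotein, was at 31.2 against 1044 to 1687 FPKM and STARD4, a cytosolic sterol carrier, at 0.587 against 7.84 to 47.2 FPKM.

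TFEB and MITF, transcription factors of lysosomal genes, were highest in ZD8, at 16.3 and 10.3 FPKM against at most 10.1 and 3.79 FPKM. TFE3, of the same family, was lowest there, at 15.9 against 16.4 to 22.6 FPKM. CEBPB was lowest in ZD8, with 19.6 FPKM in ZD8 and 73.9 to 146 FPKM in the others. ADRB1, a receptor that raises cAMP, had 0.0879 FPKM in ZD8 and 11.3 to 29.0 FPKM in the others, and AKAP1, an anchor of protein kinase A, was at 22.3 against 5.07 to 11.2 FPKM. LHCGR, the luteinizing hormone receptor, did not follow ZD8 alone: it had 27.8, 70.5 and 46.1 FPKM in SLS and 22.5, 24.2 and 10.4 FPKM in LLS, with no overlap of the groups. Its log2 difference was -1.28 (adjusted p = 0.999 by limma) and -0.92 without ZD8 (adjusted p = 0.669 by limma). It was 1 of 8 of the 89 tested genes of these lists (8.99%) whose groups did not overlap, against 5.12% of all tested genes. The others were LRP1, LPIN2 and ABHD5, higher in LLS, and CAV1, METTL7A, RAB7A and ACSL5, lower in LLS, named by this property after their values were seen. In ZD8, 10 of the 22 tested genes of cholesterol uptake and transfer were below and 6 above all other ovaries, where 26.3% and 44.6% of all tested genes were. The counts below and above were 4 and 5 of the 15 droplet proteins, 5 and 3 of the 16 synthesis enzymes and 5 and 2 of the 8 hydrolases. They were 3 and 9 of the 15 transcription factors and 5 and 3 of the 13 signalling genes.

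For the 3 members with the widest range, the genes with the most similar profile were sought as those with the smallest root mean square difference of log2(FPKM + 1) over the 6 ovaries, each gene centred on its mean. Nearest to LIPA were PRDX3 (0.15), LOC100154873 (0.15), LOC106505966 (0.17), ST8SIA5 (0.18) and NPC1 (0.21), the last of which is the protein that passes cholesterol out of the lysosome. NPC1 had 58.4, 62.0 and 69.1 FPKM in SLS and 101, 77.1 and 9.97 FPKM in LLS. LOC100154873 ranged from 3.91 to 6.41 FPKM outside ZD8 and fell to 0.0361 FPKM in ZD8. LOC106505966 ranged from 4.34 to 5.09 FPKM outside ZD8 and fell to 0.0384 FPKM. Both fell by a larger factor than LIPA, and the added 1 shrinks this on the log2(FPKM + 1) scale. Their small distances to LIPA therefore do not mean an equal fold change. Nearest to SOAT1 were HTATIP2 (0.0860), MTHFD2 (0.0913), ARF4 (0.0916), PLGRKT (0.0962) and GNA14 (0.10). Among the nearest to NCEH1 were M6PR (0.0935), ABCC4 (0.12), SLC2A11 (0.13) and AARS (0.14), all high in ZD5 and ZD7 and lowest in ZD8. M6PR, the receptor that carries enzymes to the lysosome, had 40.4, 38.8 and 36.4 FPKM in SLS and 88.5, 74.8 and 21.0 FPKM in LLS. Since 6 ovaries define a profile, these distances are descriptions with no test.

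**Figure D4:**
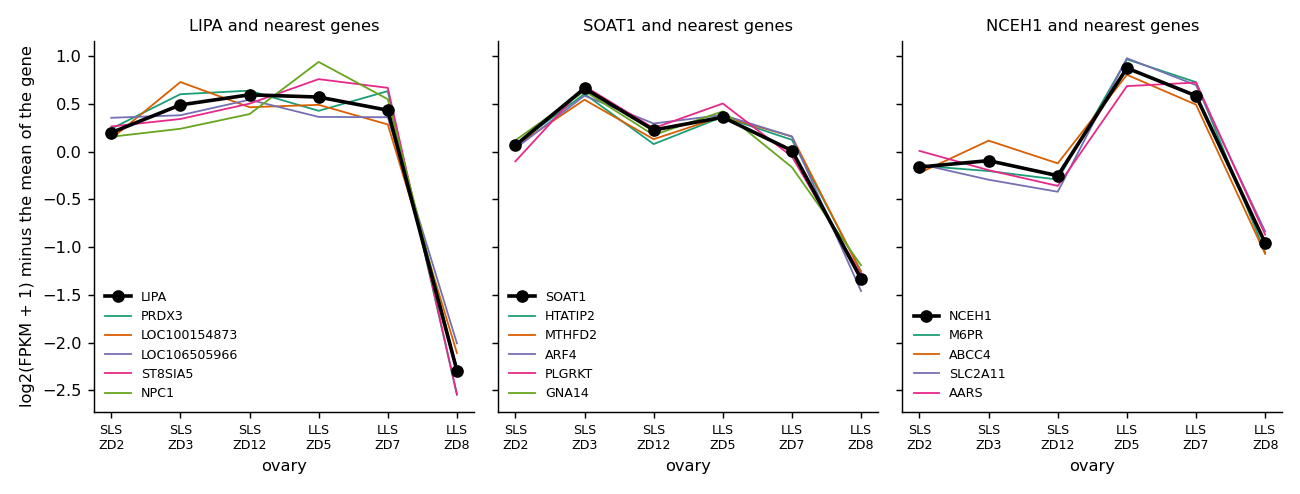
Lines give log2(FPKM + 1) minus the mean of each gene over the 6 ovaries for LIPA, SOAT1 and NCEH1 (black) and their nearest genes (colours; 5 each for LIPA and SOAT1, 4 for NCEH1); the ovaries have no order and the lines only join the points of a gene. All 3 members are lowest in ZD8, SOAT1 is highest in ZD3 and NCEH1 is highest in ZD5 and ZD7.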

How the data were processed

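Ribosomal RNA-depleted total RNA of 6 left ovaries (3 SLS, 3 LLS) was sequenced. The authors mapped reads with HISAT2 to Sscrofa11.1 and deposited FPKM per gene without read counts. The 6 columns of a deposited small RNA table hold none of the members and were not used here. The version of HISAT2 is not given in the sources used here.

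Deposited FPKM values gave whole reads (within 0.001 of a whole number) for 99.6% of 23564 detected genes with the longest RefSeq transcript as length, which gave the depths and the Poisson intervals. The intervals cover counting error only.

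Genes with at least 1 FPKM in at least 3 libraries (12260) were tested on log2(FPKM + 1) with limma 3.58.1 in R 4.3.3 (trend, Benjamini-Hochberg adjustment). A gene was called at an adjusted p under 0.05 with a log2 fold change beyond 1 in either direction. The study's count test was not used as the main test, since the table holds FPKM. Alternatives were a pseudocount of 0.1, no filter, equal sums, quantile scaling, array weights and each ovary left out. On simulated data of this comparison, limma recovered 6.5% of 200 changed genes at a log2 change of 1, 94.5% at 2 and 100% at 3. Differences are LLS minus SLS.

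Members, lists and tests were chosen with earlier results of these data known. Named beside the members are list genes that were called, the 3 of each pathway list with the widest log2 range, and the 5 genes nearest to each of the 3 members with the widest range, of which 1 is not reported here. SOAT2, TFE3, the marker genes beyond their sums and the genes overlapping members were named after their values were seen. LDAF1, HSD17B11, SPART, AADAC and MSLN were listed but not matched.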

Additional observations from a re-analysis of the deposited data

How the results depend on the processing

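With 3 ovaries a group, a log2 change of 1 was mostly out of reach of the test (6.5% recovered in simulation), so a missed call does not show that values did not differ. The number of genes called by limma was 0 with all ovaries and also at a pseudocount of 0.1, without a filter and after equal-sum and quantile scaling. It was 13 with array weights and 0 to 20 with each ovary left out, the 20 being without ZD8. In the pathway lists it was 0 throughout (0 to 0 with each ovary left out). The planned count tests on reads rebuilt from FPKM, and the same tests without ZD8 added after the data were seen, were run and then left out, since the deposited values are not counts. DESeq2 and edgeR differed on whether NCEH1 was called without ZD8, and no result here rests on either.

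No member was called by limma under any alternative given here. With each ovary left out, the log2 difference ran from -0.46 to -0.03 for PLIN2, -0.50 to -0.15 for PLIN3, -0.98 to -0.13 for SOAT1, -0.25 to 0.55 for LIPE, -0.0168 to 0.90 for NCEH1, -1.36 to 0.0748 for LIPA and -0.54 to -0.13 for PNPLA2. The sign turned for LIPE without ZD3 (-0.0413) and without ZD7 (-0.25), for NCEH1 without ZD5 (-0.0168) and for LIPA without ZD8 (0.0748). The shares differed by 6.75 to 9.998 percentage points for NCEH1, -19.3 to -5.23 for LIPA, -4.93 to 3.12 for PLIN2 and -2.26 to 1.15 for SOAT1 relative to the cholesteryl ester hydrolases, so the direction of the last 2 was not kept. Beyond leaving out the ovary named, the cause was not tested. No paired analysis was possible because the groups are different animals and the labels give no number that ties an SLS ovary to an LLS ovary (replicates are numbered in accession order).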
